A study of Mus musculus with 2 samples.

Results

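The data described here are the transcript levels of 40 genes of DNA replication and S phase in endothelial cells (ECs) of mouse tumours. The genes were taken from a written list. It runs from the replicative helicase and its loading factors to the clamp and the polymerases. The enzymes of nucleotide supply and the regulators of S-phase entry are on it too. No cutoff on a measured value was applied, but the list was chosen with earlier results of these data known. All 40 were found in both expression tables, which hold 17139 genes each. The ECs came from tumours of LLC, a Lewis lung carcinoma line, implanted in adult mice of the C57BL/6 background. The tumours were injected intratumourally (i.t.) with PBS or with cGAMP, a cyclic dinucleotide that activates STING, and CD31+ cells were sorted by FACS, so the cells are those that carried CD31 and survived dissociation. Each condition is 1 library of droplet-based single-cell RNA-seq from 1 mouse, with 2517 ECs after PBS and 1340 ECs after cGAMP. Differences between the libraries therefore have no replicate check and were not tested, and every interval covers the error of counting UMIs or cells and nothing else.

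DNA replication starts with licensing, when origin-bound Cdc6 and Cdt1 load the Mcm2 to Mcm7 helicase in G1, and goes on in S phase, when Cdc45 and the GINS complex switch the helicase on and primase, polymerases and the Pcna clamp copy the strands. Many of these genes are targets of E2F transcription factors and are transcribed around the G1/S transition, whereas genes of mitosis are transcribed later, in G2 and M. In tumours, ECs divide while vessels sprout, so a sorted EC population holds cells in every phase beside a majority of cells that do not cycle.

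The letters that E2F factors bind are shown first, because they are shared by many of the promoters and were not used to choose the genes. RefSeq promoter windows (GRCm38.p6, 250 bases before to 50 after the transcription start) were matched by symbol for 33 of the 40 genes, as 38 windows. Gins1, Gins2, Mcm4, Rfc2, Pole, Ccne2 and Esco2 had no entry. The E2F letters TTTCGCGC or TTTGGCGC, searched on both strands, were present in 10 of the 38 windows (26.3%), beside 267 of 32851 windows of all genes (0.813%). These windows belong to Mcm3, Mcm5, Mcm6, Mcm7, Cdt1, Rfc3, Pola1, Lig1, Uhrf1 and Clspn. The NF-Y letters CCAAT stood in 21 windows (55.3%) against 37.4% of all windows, and the CHR letters of later cell cycle genes, TTTGAA or TTCGAA, in 5 windows (13.2%) against 19.2%. The windows of 5 of these genes follow, 5′ to 3′ on the strand of the gene, with the E2F letters of either strand in capitals. Mcm5 and Mcm6 are helicase subunits, Cdt1 loads the helicase, Rfc3 is a gene of the clamp loader with a higher level after cGAMP, and Pola1, the catalytic subunit of polymerase alpha, was among the few with a lower level.
Mcm5 (chr8:75109259-75109558, plus strand): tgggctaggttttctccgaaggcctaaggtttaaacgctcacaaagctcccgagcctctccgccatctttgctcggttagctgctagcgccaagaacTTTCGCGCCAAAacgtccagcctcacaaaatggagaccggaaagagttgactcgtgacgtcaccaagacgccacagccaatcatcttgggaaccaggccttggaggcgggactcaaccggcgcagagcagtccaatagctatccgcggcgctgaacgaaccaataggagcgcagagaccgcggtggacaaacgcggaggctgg
Mcm6 (chr1:128359656-128359955, minus strand): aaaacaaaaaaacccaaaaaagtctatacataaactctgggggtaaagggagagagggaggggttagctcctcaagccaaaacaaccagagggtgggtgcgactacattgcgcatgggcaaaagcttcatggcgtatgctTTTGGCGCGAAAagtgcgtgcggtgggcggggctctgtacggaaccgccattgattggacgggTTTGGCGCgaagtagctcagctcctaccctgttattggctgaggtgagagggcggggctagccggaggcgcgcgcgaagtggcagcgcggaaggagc
Cdt1 (chr8:122567765-122568064, plus strand): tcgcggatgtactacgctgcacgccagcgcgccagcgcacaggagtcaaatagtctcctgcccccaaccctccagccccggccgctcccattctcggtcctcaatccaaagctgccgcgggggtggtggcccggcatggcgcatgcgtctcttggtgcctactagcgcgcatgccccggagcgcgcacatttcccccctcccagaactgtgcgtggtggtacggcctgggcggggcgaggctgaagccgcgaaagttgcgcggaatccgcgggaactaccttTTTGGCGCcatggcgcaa
Rfc3 (chr5:151651159-151651458, minus strand): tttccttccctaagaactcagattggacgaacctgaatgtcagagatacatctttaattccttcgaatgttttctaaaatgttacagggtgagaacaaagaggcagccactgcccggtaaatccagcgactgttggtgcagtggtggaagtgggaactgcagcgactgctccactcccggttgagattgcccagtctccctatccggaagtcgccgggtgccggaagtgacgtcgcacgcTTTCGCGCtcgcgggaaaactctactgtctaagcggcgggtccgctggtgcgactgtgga
Pola1 (chrX:93632106-93632405, minus strand): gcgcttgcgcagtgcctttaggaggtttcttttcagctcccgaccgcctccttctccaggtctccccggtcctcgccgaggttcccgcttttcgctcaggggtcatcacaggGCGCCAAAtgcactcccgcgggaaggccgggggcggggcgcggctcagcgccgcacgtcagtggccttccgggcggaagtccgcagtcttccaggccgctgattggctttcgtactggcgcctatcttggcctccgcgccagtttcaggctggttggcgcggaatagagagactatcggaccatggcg
In Mcm5 and Mcm6 a site on the printed strand, starting at -153 and -110 relative to the transcription start, overlapped a site on the other strand, so that the capitals run over 12 bases. Mcm6 held a further site at -47. A match of letters is a description of the window and does not show that a factor was bound in these cells.

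The libraries summed to 92081146 UMIs after PBS and 63366746 after cGAMP, with medians of 29780 and 41178 UMIs per EC, and they shared 1 cell barcode. All 8 endothelial markers (Pecam1, Cdh5, Kdr, Tek, Cldn5, Egfl7, Erg and Emcn) were detected in both, at a summed 4897 and 5806 CPM, the UMIs of a gene scaled to an equal library total. Markers of other cell types were low but differed: the 8 macrophage or monocyte markers summed to 15.3 and 31.8 CPM, and of the 4 neutrophil markers 3 were found, at 0.608 and 16.9 CPM, whereas the 8 fibroblast or pericyte markers summed to 18.3 and 11.0 CPM and the 4 epithelial or tumour cell markers found to 2.15 and 0.395 CPM. Their part in the ratios was not tested, beyond the filter on leucocyte UMIs given with the results. The median mitochondrial share was 4.49% and 2.87%. Levels below are given in CPM, from UMIs added up over all cells of a library or class, with exact Poisson 95% intervals, and differences are log2 ratios of cGAMP over PBS, with the exact conditional 95% interval of 2 counts. A gene was counted as past the fold when the ratio reached 1.5-fold in either direction and the gene had at least 5 CPM in either library.

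Across all ECs the replication genes were slightly higher after cGAMP while the genes of G2 and mitosis were lower. Of the 40 genes, 32 had a higher and 8 a lower level in the cGAMP library, with a median log2 ratio of 0.16 and a range from -0.56 to 0.50. The median over all 9509 genes of at least 5 CPM was -0.08, with 3840 of them higher and 5669 lower. None of the 40 passed 1.5-fold in either direction, beside 4.53% of all genes that were higher and 7.41% that were lower by that much. The counting interval lay above 0 for 24 genes, below 0 for 5 and spanned 0 for 11. Intervals were not counted over all genes, so these counts have no background to be set against. In the same cells, all 24 G2/M markers (Mki67, Top2a, Cenpf and others) were lower, with a median log2 ratio of -0.86, and 20 of them passed 1.5-fold. Of 12 S-phase histone markers with enough UMIs, 9 were lower, with a median of -0.52.

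**Figure D1:**
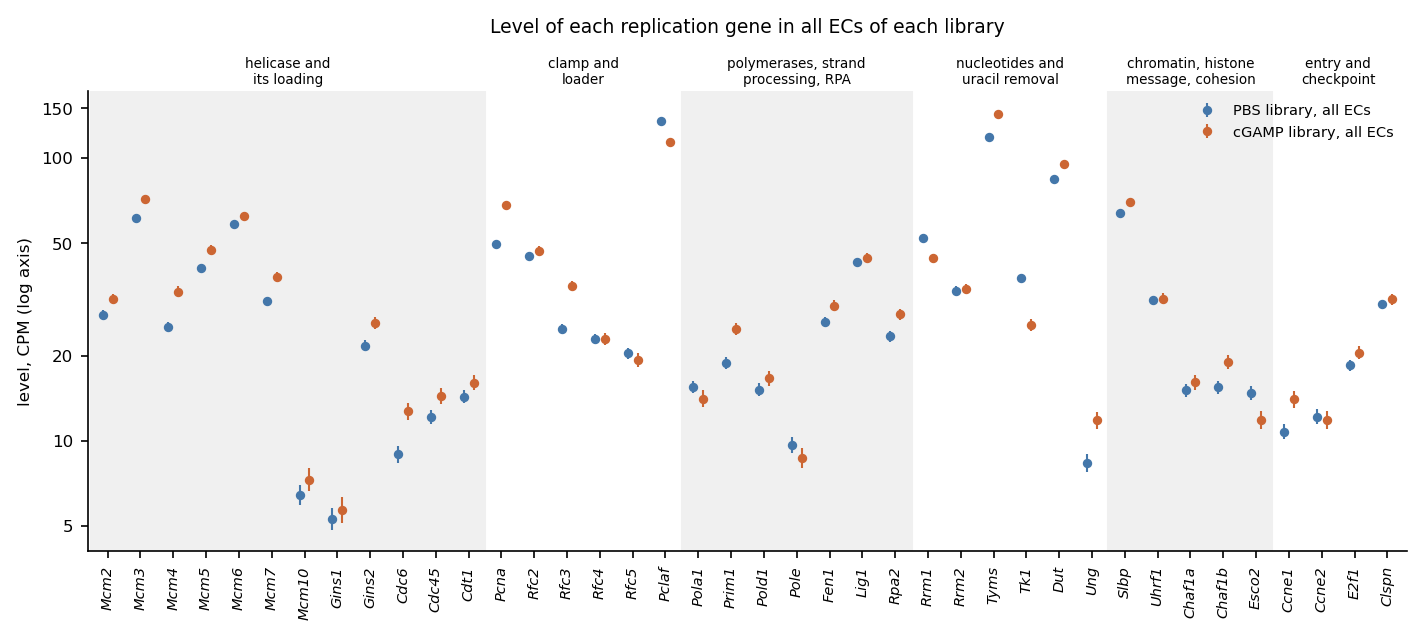
Level in CPM (log axis) of the 40 replication genes in all ECs of the PBS library (blue) and the cGAMP library (orange), grouped by role, with exact Poisson 95% intervals, many of them smaller than the points. The orange point lies above the blue one for 32 genes, and Tk1 shows the widest gap in the other direction, at 37.7 and 25.6 CPM.

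Of the genes of the helicase and its loading, 12 of 12 had a higher level after cGAMP, none of them past 1.5-fold, with a median log2 ratio of 0.22. Cdc6, on chromosome 11 of GRCm38 from 98907801 to 98923940, encodes an ATPase that brings the helicase to origins. It was at 8.97 CPM (8.37 to 9.60) after PBS and 12.7 CPM (11.9 to 13.6) after cGAMP, and this log2 ratio of 0.50 (0.36 to 0.65) was the highest of the 40. Its partner Cdt1 was at 14.3 and 16.0 CPM, a log2 ratio of 0.16 (0.04 to 0.28). Among the 6 subunits of the helicase ring, the ratio was highest for Mcm4, at 25.3 and 33.7 CPM (0.41, 0.33 to 0.50), and lowest for Mcm6, at 58.4 and 62.1 CPM (0.09, 0.03 to 0.15). The counting intervals of these 2 subunits of the same complex did not overlap, but they leave out the spread between cells and between mice. Whether the ring's genes differed between the libraries by a common factor was not tested. Mcm7 was at 31.1 and 37.95 CPM, Mcm3 at 61.1 and 71.7 CPM, Mcm5 at 41.0 and 47.3 CPM and Mcm2 at 27.9 and 31.7 CPM. Of the genes that switch the loaded helicase on, Gins2 was at 21.7 and 26.1 CPM and Cdc45 at 12.2 and 14.4 CPM, with log2 ratios of 0.27 and 0.25. Gins1, at 5.29 and 5.70 CPM, had an interval from -0.09 to 0.31, and Mcm10 went from 6.43 to 7.29 CPM with an interval whose lower bound was 0.00.

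The clamp and its loader did not share a direction. Pcna, the sliding clamp that tethers polymerases to DNA, lies on chromosome 2 from 132249162 to 132253314 and was at 49.6 CPM (48.2 to 51.1) after PBS and 67.9 CPM (65.9 to 70.0) after cGAMP, a log2 ratio of 0.45 (0.39 to 0.51). Of the small subunits of the loader that opens the clamp, Rfc3 was at 24.9 and 35.1 CPM (0.50, 0.41 to 0.58), whereas Rfc2, Rfc4 and Rfc5 had ratios of 0.06, 0.00 and -0.08 with intervals that span 0. Pclaf, a protein that binds Pcna during S phase, was lower, at 135 CPM (132 to 137) and 114 CPM (111 to 117), a log2 ratio of -0.24 (-0.28 to -0.20). These levels rest on 12388 and 7216 UMIs.

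Genes of strand synthesis and strand processing were higher in 5 of 7 cases, with a median log2 ratio of 0.13. Prim1, which encodes the catalytic subunit of primase, was at 18.8 and 24.8 CPM (0.40, 0.30 to 0.50). Pola1, whose product extends the primer that primase makes, was at 15.5 and 14.1 CPM (-0.14, -0.26 to -0.01), so the subunits of 1 enzyme complex lay on opposite sides of 0. Of the polymerases that copy most of the genome, Pold1 was at 15.1 and 16.6 CPM (0.13, 0.02 to 0.25) and Pole at 9.65 and 8.70 CPM (-0.15, -0.31 to 0.00). Fen1, the flap nuclease of Okazaki fragments, was at 26.3 and 30.02 CPM and Rpa2, a subunit of the single-strand binding complex, at 23.4 and 27.9 CPM, with log2 ratios of 0.19 and 0.26. Lig1, the ligase that joins the fragments, had a ratio of 0.05 with an interval from -0.02 to 0.12.

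Nucleotide supply and uracil removal held the lowest ratio and 1 of the 3 highest. Tk1, thymidine kinase of the salvage pathway, lies on chromosome 11 from 117815526 to 117826092. It was at 37.7 CPM (36.5 to 39.0) after PBS and 25.6 CPM (24.4 to 26.9) after cGAMP, a log2 ratio of -0.56 (-0.64 to -0.47), the lowest of the 40. Tyms, which makes thymidylate by the other route, de novo, was higher, at 119 and 143 CPM (0.27, 0.23 to 0.31). Of the subunits of ribonucleotide reductase, the large subunit Rrm1 was lower, at 52.3 and 44.2 CPM (-0.24, -0.31 to -0.17), and the small subunit Rrm2 was at 33.9 and 34.4 CPM with an interval that spans 0 (0.02, -0.06 to 0.10). Dut, which removes dUTP from the pool, was at 83.9 and 94.8 CPM (0.17, 0.13 to 0.22). Ung, the glycosylase that cuts uracil out of DNA, on chromosome 5 from 114130386 to 114139323, was at 8.34 CPM (7.76 to 8.95) and 11.8 CPM (11.0 to 12.7), a log2 ratio of 0.50 (0.35 to 0.65).

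Of the genes of chromatin, histone message and cohesion, Chaf1b, a subunit of the CAF-1 chaperone that deposits histones behind the fork, was at 15.5 and 18.9 CPM (0.29, 0.18 to 0.40), and its partner Chaf1a at 15.1 and 16.1 CPM with an interval that spans 0. Slbp, which binds the stem-loop of replication-dependent histone messages, was at 63.6 and 69.9 CPM (0.14, 0.08 to 0.19), and Uhrf1, which recruits the maintenance methyltransferase to new DNA, at 31.4 and 31.8 CPM. Esco2, an acetyltransferase that makes cohesin hold sister chromatids together, was lower, at 14.8 and 11.8 CPM (-0.32, -0.45 to -0.19). Among regulators of S-phase entry, cyclin E1 (Ccne1) was at 10.8 and 14.0 CPM (0.38, 0.24 to 0.51) and cyclin E2 (Ccne2) at 12.2 and 11.9 CPM (-0.04, -0.17 to 0.10), and these 2 intervals did not overlap. E2f1 was at 18.5 and 20.5 CPM (0.15, 0.04 to 0.26), and the checkpoint adaptor Clspn at 30.4 and 31.6 CPM with an interval that spans 0.

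**Figure D2:**
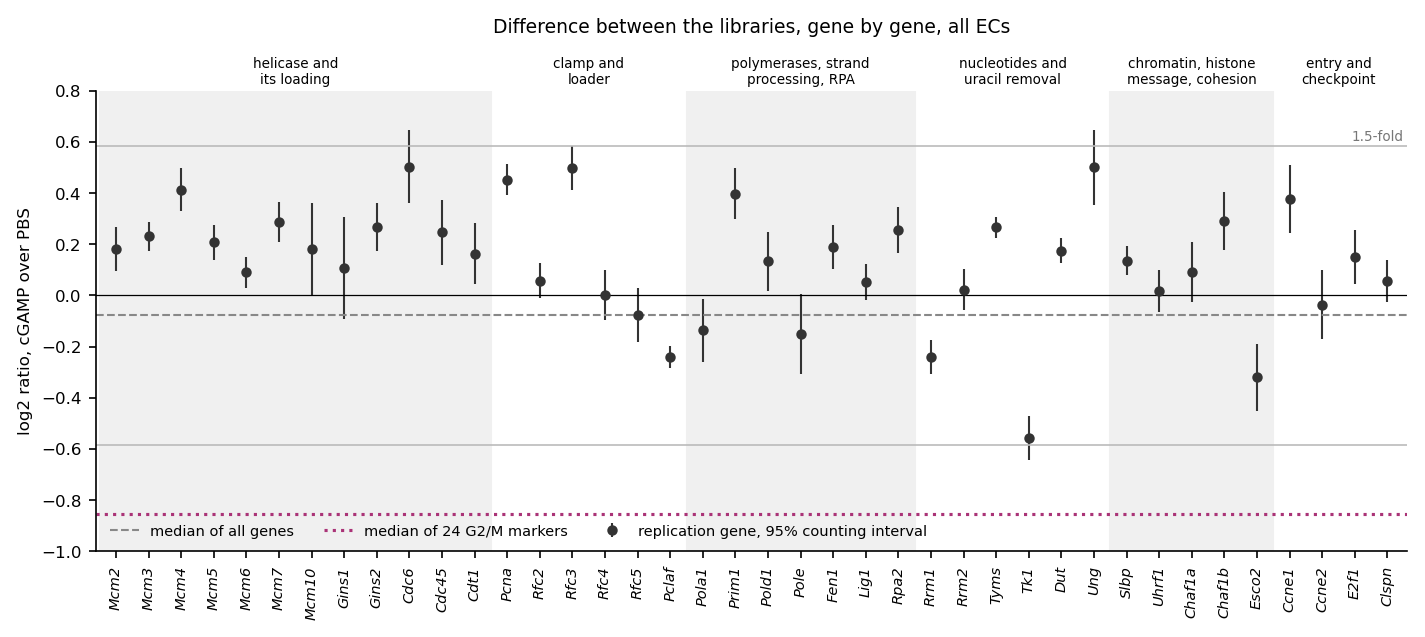
Log2 ratio of cGAMP over PBS for each of the 40 replication genes in all ECs, grouped by role, with exact conditional 95% counting intervals. Grey lines mark 1.5-fold, the dashed line the median of all genes (-0.08) and the dotted line the median of 24 G2/M markers (-0.86), and every replication gene lies above the dotted line.

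Direction was stable for some of these genes and not for others. Under 6 ways of computing the ratio over all ECs (as above, as a mean over cells, with median-of-ratios scaling, with class proportions held equal, with a mitochondrial limit of 5% and without cells that held a UMI of Ptprc, Lyz2, S100a8 or S100a9), 26 of the 40 kept their sign, 23 of them higher and 3 of them (Tk1, Rrm1 and Pole) lower. Tk1 was lower in each, and past 1.5-fold in 3 of them. With the mitochondrial limit of 5% the median over the 40 genes was 0.07, with 25 genes higher and 15 lower. Without the leucocyte-UMI cells it was 0.04, with 24 higher and 16 lower, and this filter kept 2125 and 701 ECs. The group of helicase genes then had a median of 0.10 under either filter, with 11 and 10 of 12 genes higher, and Mcm6, Mcm10 and Gins1 are the genes that changed sign in one or the other. The group of strand synthesis and processing had medians of 0.06 and 0.05. Every other group had a median below 0 under both filters. These were -0.03 and -0.04 for the clamp and its loader, and -0.02 and -0.09 for nucleotide supply and uracil removal. They were -0.05 and -0.05 for chromatin, histone message and cohesion, and -0.03 and -0.03 for S-phase entry and checkpoint. Pclaf, Esco2 and Pola1, lower above, had ratios of 0.03, 0.00 and 0.00 with class proportions held equal.

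To look inside the population, the ECs of both libraries were clustered on genes that left out all 40 members, the other genes that differed 2-fold or more between the libraries being left out as well. A cluster of 480 ECs after PBS and 182 after cGAMP was called G2/M-like from its leading genes, which included Ube2c, Cenpf, Prc1, Mki67 and 3 S-phase histone markers, so it pools histone-expressing and mitotic cells. Another cluster, of 169 and 134 ECs, had none of the marker lists among its leading genes and was left unnamed. It was led by Ung, Hells, Cdc6, Slfn9, Uhrf1, Mcm7, E2f1, Mcm5, Cdt1 and Mcm4, 8 of them members that the clustering did not use, and is called the Ung-led cluster here. A cluster led by Ung and Hells was also drawn at a Louvain resolution of 0.8 and with the 40 genes kept among the variable genes. It was absent at a resolution of 0.3, without integration and with cells thinned to 5000 UMIs before clustering. In these 3 settings no cluster had 5 or more replication genes among its 10 leading genes. The G2/M-like share was 19.1% (17.6 to 20.7) after PBS and 13.6% (11.8 to 15.5) after cGAMP. The Ung-led share was 6.71% (5.77 to 7.76) and 10.0% (8.45 to 11.7). Under finer clustering, given below, the intervals of the Ung-led shares overlapped. The remaining ECs were 1868 and 1024 cells. Median UMIs per cell were 41919 and 58471 in the G2/M-like cluster, 40316 and 49460 in the Ung-led cluster and 26106 and 37328 in the remaining ECs.

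All 40 genes were higher in both clusters than in the remaining ECs of the same library. For the Ung-led cluster this follows in part from its choice. It was set apart because replication genes led it, and the remaining ECs are the cells left over. The log2 ratio of the G2/M-like cluster over the remaining ECs had a median of 2.57 after PBS and 2.88 after cGAMP, and that of the Ung-led cluster 2.92 and 2.73. Esco2 was the most restricted, with 83.0% and 83.2% of its UMIs in G2/M-like ECs and 3.24% and 2.67% in the remaining ECs. Rfc2 was the least, with 44.5% and 49.3% of its UMIs in the remaining ECs, and Rfc3, Mcm6 and Slbp were close to it in the PBS library, at 43.7%, 43.4% and 43.8%. In that library Rfc2, Slbp, Rfc3, Mcm6 and Ung had more UMIs in the remaining ECs than in the G2/M-like cluster, whereas Pclaf, Tk1 and Rrm2 had 75.2%, 75.7% and 74.0% of theirs in the G2/M-like cluster.

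Between the 2 clusters the genes fell into an order. In both libraries Mcm2, Mcm3, Mcm4, Mcm5, Mcm6, Cdc6, Cdt1, Ung, Chaf1a and E2f1 were higher in the Ung-led cluster, 10 genes that include the licensing factors and most of the helicase ring. Of these, Ung, Cdc6, E2f1, Mcm5, Cdt1 and Mcm4 are among the leading genes by which the cluster was singled out, so their place restates that choice. In both libraries 15 genes were higher in the G2/M-like cluster, namely Gins1, Cdc45, Rfc2, Rfc5, Pola1, Prim1, Pole, Fen1, Rrm1, Rrm2, Tyms, Tk1, Ccne1, Pclaf and Esco2. The other 15 were higher in the Ung-led cluster after PBS and in the G2/M-like cluster after cGAMP. This sorting went by the sign of the log2 ratio between the clusters alone, and several counting intervals held both signs. After PBS these were the intervals of Gins1, Cdc45, Rfc2, Rfc4, Pola1, Prim1, Fen1 and Ccne1. After cGAMP they were those of Mcm5, Cdc6, Cdt1, Chaf1a, Gins1, Pole, Mcm7, Mcm10, Rfc3, Pold1, Rpa2 and Chaf1b. Mcm7 was placed by a ratio of -0.002 after cGAMP. At the ends of the order stood Ung, with a log2 ratio of Ung-led over G2/M-like cluster of 2.93 (2.65 to 3.21) after PBS and 1.23 (0.97 to 1.497) after cGAMP, and Esco2, with -1.12 (-1.35 to -0.89) and -1.97 (-2.28 to -1.67). Of the 8 genes that were lower after cGAMP over all ECs, 7 were among the 15 higher in the G2/M-like cluster in both libraries, and none was among the 10. These placements come from the same cells as the ratios between the libraries and are a description.

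**Figure D3:**
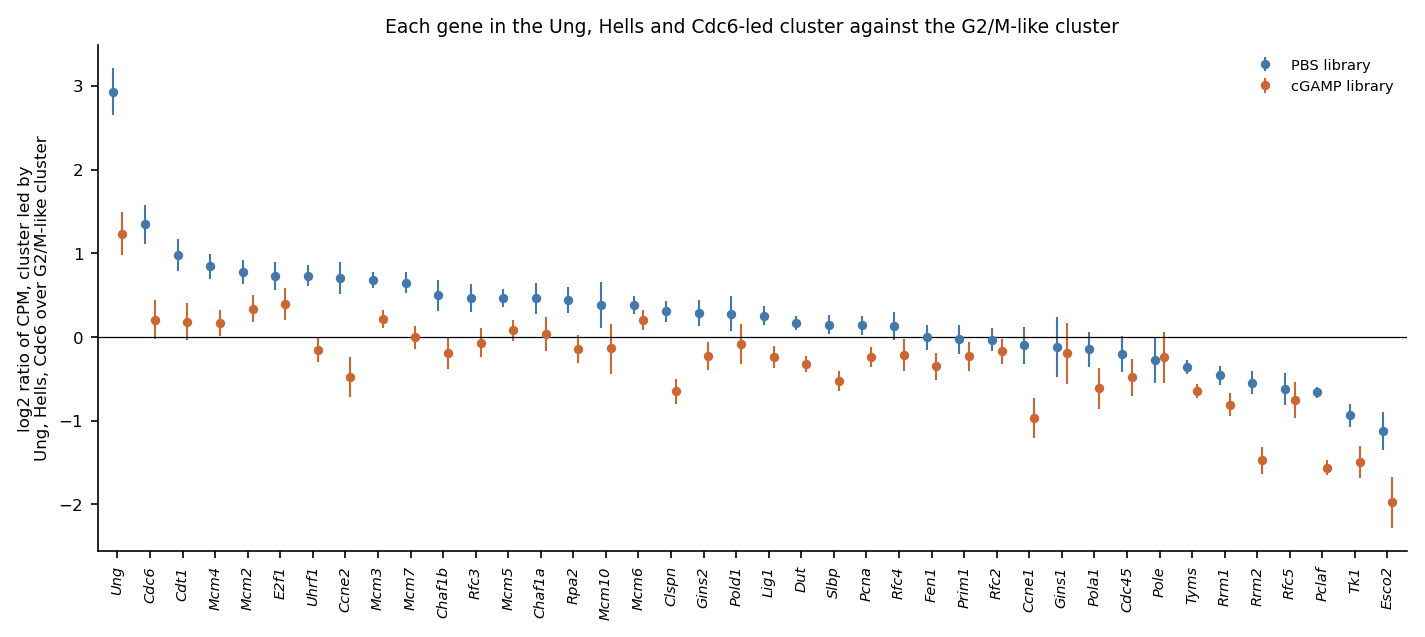
Log2 ratio of CPM in the Ung-led cluster over the G2/M-like cluster for each replication gene, in the PBS library (blue) and the cGAMP library (orange), ordered by the PBS value, with exact conditional 95% counting intervals. Ung, Cdc6 and Cdt1 stand at the left with 2.93, 1.34 and 0.98 after PBS, and Pclaf, Tk1 and Esco2 at the right with -0.66, -0.94 and -1.12. The orange point lies lower than the blue one for each gene except Pole.

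Within the G2/M-like cluster the replication genes were higher after cGAMP. Of the 40 genes 37 were higher and 3 lower, with a median log2 ratio of 0.46, and the counting interval lay above 0 for 37. Of all 9488 genes here, 3899 were higher and 5589 lower, and their intervals were not counted. In this cluster 9 genes passed 1.5-fold higher (4.37% of all genes did) and none passed it lower (6.81% did). Ung was at 6.22 CPM (5.24 to 7.32) and 17.4 CPM (15.1 to 19.999), which gives a log2 ratio of 1.49 (1.17 to 1.81), on 143 and 200 UMIs. Cdc6 went from 14.5 to 31.5 CPM (1.12, 0.90 to 1.34), and Rfc3, Ccne1, Mcm4, Chaf1b, Pcna, Gins2 and Mcm7 had ratios from 0.61 to 0.79. Tk1, Rrm1 and Pole, at 114 and 107 CPM, 129 and 129 CPM, and 21.4 and 21.4 CPM, had intervals that span 0. The 24 G2/M markers had a median log2 ratio of -0.35 in these cells, with 23 of them lower, and the histone markers one of 0.11, so the make-up of the cluster differed between the libraries. Whether the higher levels reflect that make-up or a higher level per cell in the same phase cannot be told apart here. The median was 0.29 at a Louvain resolution of 0.3, 0.25 with cells thinned before clustering and 0.28 with the Ung-led cluster counted in.

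In the Ung-led cluster as drawn here, the helicase genes had a median log2 ratio of 0.02 and the 40 genes one of -0.02, and this pattern was not kept under finer clustering. Of the 40, 17 were higher and 23 lower, a division close to that of all genes, of which 5671 of 9512 were lower. None passed 1.5-fold higher (5.18% of all genes did) and 4 passed it lower, a share near the 9.49% of all genes. These were Esco2 at 22.6 and 13.8 CPM (-0.71, -1.07 to -0.36), Tk1 at 59.7 and 37.96 CPM (-0.65), Pclaf at 256 and 165 CPM (-0.64) and Ccne2 at 42.3 and 27.8 CPM (-0.61). Rrm2, Uhrf1 and Clspn each had a ratio of -0.41 and Rrm1 one of -0.35, with intervals below 0. Cdc6 was at 36.8 and 36.4 CPM, Mcm5 at 118 and 119 CPM, Mcm3 at 164 and 163 CPM and Mcm2 at 76.2 and 78.0 CPM. Prim1 (0.36, 0.16 to 0.56), Pcna (0.27, 0.13 to 0.40) and Rfc3 (0.25, 0.06 to 0.45) were higher here as in the other classes. At a Louvain resolution of 0.8 the Ung-led cluster had a median of 0.24, with 31 genes higher and 9 lower. Mcm3, Mcm4 and Cdc6 then had ratios of 0.31, 0.43 and 0.44, and Rrm2, Uhrf1, Clspn and Ccne2 ratios of -0.02, -0.04, -0.07 and -0.11 with intervals that span 0, whereas Tk1, Pclaf, Esco2 and Rrm1 still had intervals below 0. In the Ung-led cluster as first drawn, at a resolution of 0.5, the 24 G2/M markers had a median of -1.55. All 11 histone markers with enough UMIs were lower there, with a median of -1.45.

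In the remaining ECs 30 of the 40 genes reached 5 CPM in either library, and the other 10 were left out of the counts. Of the 30, 22 were higher and 8 lower, with a median log2 ratio of 0.15. Of all 9382 genes here, 3995 were higher and 5387 lower. Prim1 passed 1.5-fold higher, from 5.05 to 7.98 CPM (0.66, 0.44 to 0.89), beside 5.35% of all genes, and Tk1 and Pclaf passed it lower, beside 8.09%, so neither share of the 30 was above that of all genes. Tk1 was at 5.77 CPM (5.19 to 6.41) after PBS and 2.42 CPM (1.98 to 2.92) after cGAMP, a log2 ratio of -1.25 (-1.58 to -0.94), and Pclaf at 15.6 and 8.35 CPM (-0.90, -1.08 to -0.72). In the same cells Pcna was at 26.1 and 38.3 CPM (0.55, 0.45 to 0.65), Mcm4 at 11.3 and 16.1 CPM (0.50, 0.35 to 0.65) and Tyms at 63.3 and 86.2 CPM (0.45, 0.38 to 0.51). Of 13 G2/M markers at 5 CPM or more here, 12 were lower, with a median of -1.40. The G2/M markers moved with Tk1 and Pclaf in these cells, and their part in the ratios was not tested.

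**Figure D4:**
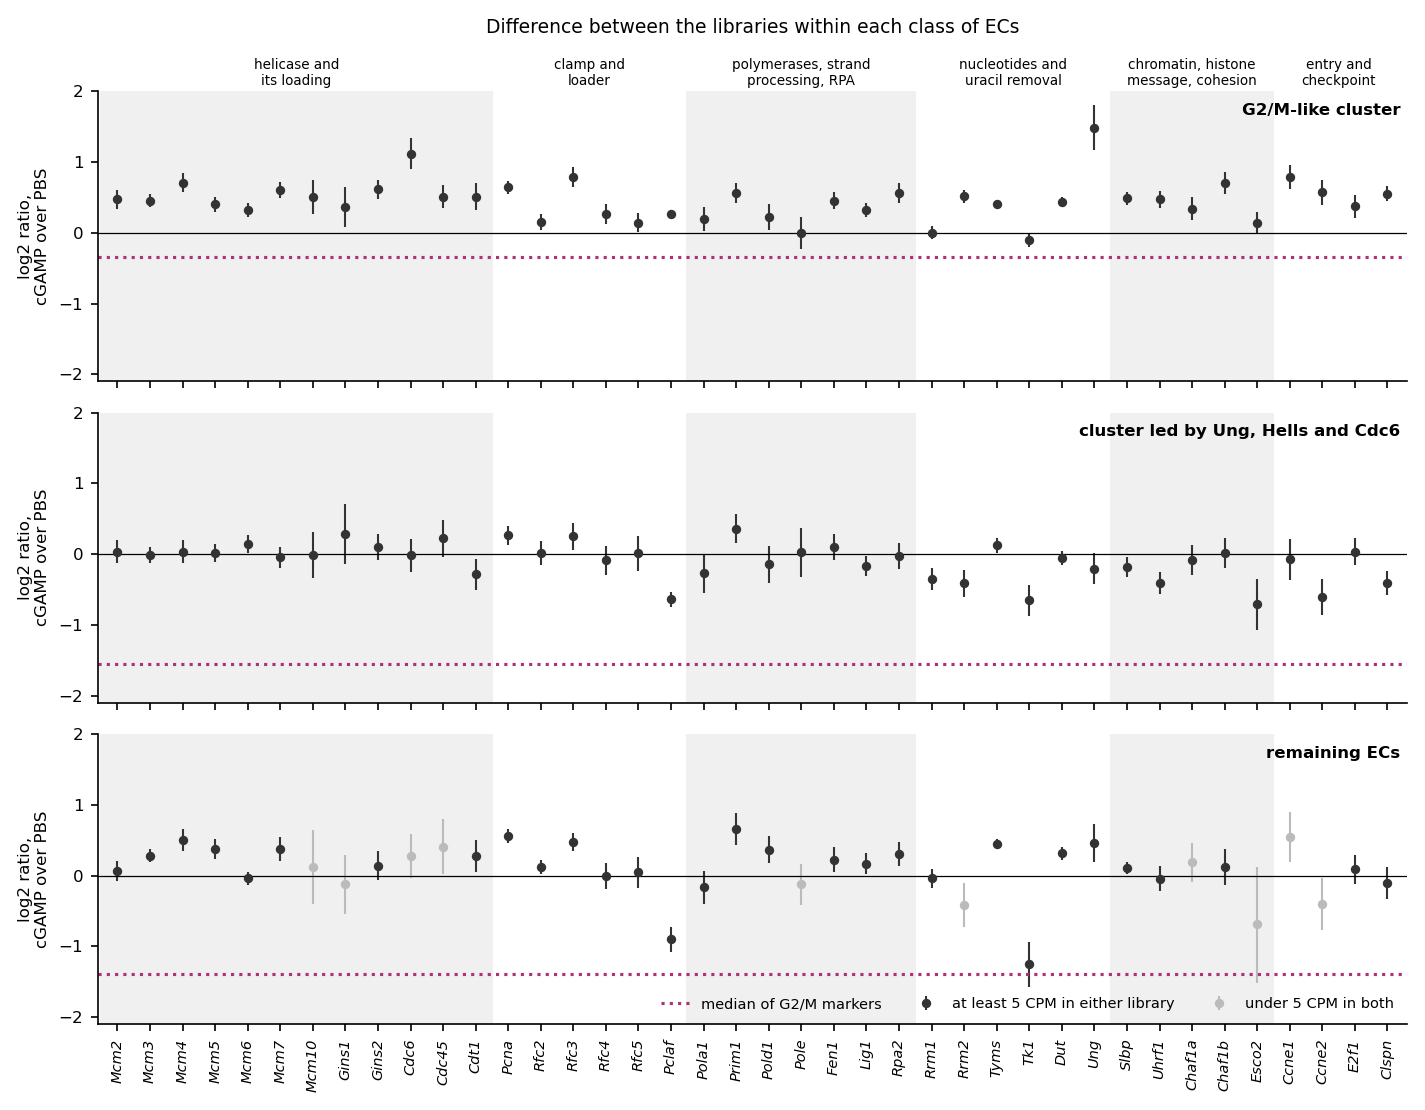
Log2 ratio of cGAMP over PBS for each replication gene in the G2/M-like cluster (top), the Ung-led cluster (middle) and the remaining ECs (bottom), with exact conditional 95% counting intervals; grey points had under 5 CPM in both libraries and the dotted line is the median of the G2/M markers in the same cells. Points lie mostly above 0 in the top panel (median 0.46), around 0 in the middle panel (median -0.02), and Tk1 and Pclaf lie below the rest in the bottom panel.

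Finer clustering, at a Louvain resolution of 0.8, parted the cycling ECs into 3 clusters, an Ung-led cluster of 245 and 149 cells, an S-phase-like cluster led by histone genes of 214 and 115 cells, and a G2/M-like cluster led by Cenpf and Cdc20 of 212 and 54 cells. The share of the Ung-led cluster was 9.73% (8.60 to 11.0) after PBS and 11.1% (9.49 to 12.9) after cGAMP, with intervals that overlap, unlike those of the clustering above. The share of the S-phase-like cluster was 8.50% (7.44 to 9.66) and 8.58% (7.14 to 10.2), and that of the G2/M-like cluster 8.42% (7.37 to 9.58) and 4.03% (3.04 to 5.23). The median log2 ratio of the replication genes was 0.24, 0.12 and 0.25 in the 3 clusters, beside 0.46 in the G2/M-like and -0.02 in the Ung-led cluster above. With the S-phase-like and G2/M-like clusters pooled it was 0.38. The finer clustering also drew more cells into the Ung-led cluster, and which change moved the medians was not tested. Tk1 was lower in all 3, with ratios of -0.59 in the Ung-led, -0.42 in the S-phase-like and -0.19 in the G2/M-like cluster, and Rrm1 likewise, with -0.27, -0.25 and -0.09. Cdc6 was higher in all 3, at 0.44, 0.75 and 0.85, as were Pcna, at 0.48, 0.23 and 0.80, and Rfc3, at 0.60, 0.48 and 0.46. Pclaf was at -0.51, -0.03 and 0.19.

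A view without clusters was taken as well. Every EC was thinned to 5000 UMIs, which left out 70 cells after PBS and 13 after cGAMP, and its UMIs of the 40 replication genes and of the 24 G2/M markers were summed. Cells with 10 or more replication UMIs were 457 of 2447 (18.7%, 17.1 to 20.3) after PBS and 269 of 1327 (20.3%, 18.1 to 22.5) after cGAMP, shares whose intervals overlap. Cells with 3 or more G2/M marker UMIs were 30.3% (28.5 to 32.1) and 19.97% (17.8 to 22.2). Cells with replication UMIs in this range but under 3 G2/M marker UMIs were 2.29% (1.73 to 2.96) and 5.65% (4.47 to 7.03), and cells with 3 or more G2/M marker UMIs but under 10 replication UMIs were 13.9% (12.5 to 15.3) and 5.35% (4.202 to 6.70). Among cells with 10 or more replication UMIs, 12.3% (9.39 to 15.6) lacked 3 G2/M marker UMIs after PBS and 27.9% (22.6 to 33.65) after cGAMP. These classes are ranges of a continuous count, chosen after the values were seen, and 75 and 45 cells had 9 or 10 replication UMIs, next to the limit.

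**Figure D5:**
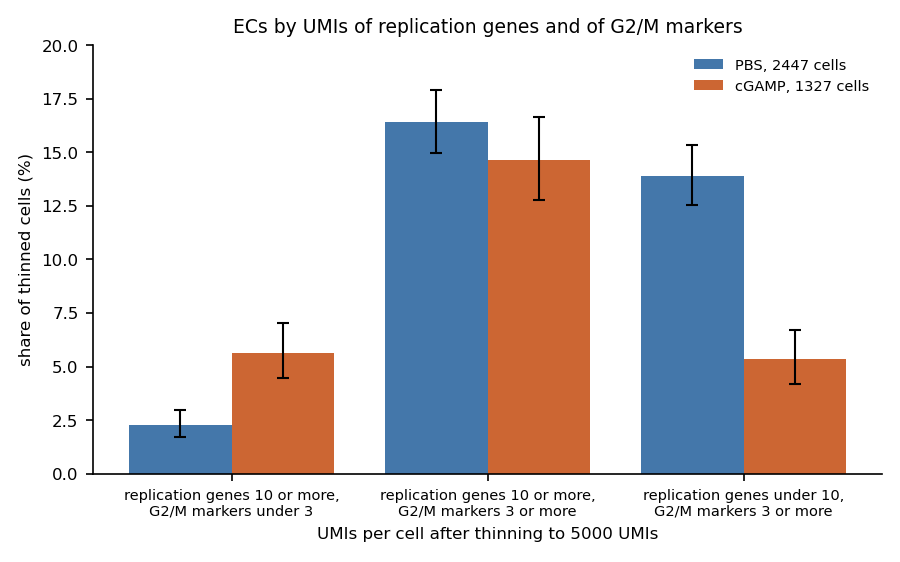
Share of thinned ECs (%) in 3 ranges of UMIs of the replication genes and of the G2/M markers, PBS (blue, 2447 cells) and cGAMP (orange, 1327 cells), with exact binomial 95% intervals. The cGAMP bar is higher in the range with replication UMIs and under 3 G2/M marker UMIs (5.65% against 2.29%), and lower in the range with G2/M marker UMIs and few replication UMIs (5.35% against 13.9%).

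At 5000 UMIs a median of 2 replication genes was detected per EC after PBS and 3 after cGAMP, with up to 26 and 24. The median was 9.5 and 14 in the G2/M-like cluster, 11 and 11 in the Ung-led cluster and 2 and 2 in the remaining ECs. Detection in the Ung-led cluster restates in part how that cluster was singled out. Over the 40 genes the share of ECs with a UMI had a median of 9.24% and 9.34%, from 1.88% and 2.03% for Gins1 to 36.9% and 43.0% for Tyms. In the remaining ECs, which serve as the background of cells outside the cycling clusters at the same depth, the median share was 3.05% and 4.09%. Pclaf was detected in 76.5% and 87.2% of G2/M-like ECs, in 60.4% and 39.8% of Ung-led ECs and in 4.51% and 2.46% of the remaining ECs. Tk1 was detected in 11.5% of all ECs after PBS and 6.93% after cGAMP, and Ung in 20.7% and 20.3% of Ung-led ECs against 3.48% and 7.82% of G2/M-like ECs. Without thinning, all 6 genes of the Mcm2 to Mcm7 ring were detected together in 79.9% and 78.4% of Ung-led ECs. The shares were 45.0% and 69.2% in G2/M-like ECs and 4.71% and 9.57% in the remaining ECs, but depth differed between the libraries as given above. After thinning to 10000 UMIs they were 10.7% and 11.5% in Ung-led ECs and 5.56% (3.63 to 8.09) and 6.29% (3.18 to 11.0) in G2/M-like ECs. In the remaining ECs they were then 0.233% and 0.204%. These thinned shares rest on 25 of 450 and 11 of 175 G2/M-like ECs and on 4 of 1717 and 2 of 979 remaining ECs. Such counts are too small to show whether the gaps between the libraries remained at equal depth.

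Of 90 other genes of replication and the G1/S transition, 83 reached 5 CPM, and 49 were higher and 34 lower after cGAMP, with a median log2 ratio of 0.07, 5 past 1.5-fold higher and 3 past it lower, beside the 4.53% and 7.41% of all genes. The highest were Ccnd2, cyclin D2, at 21.9 and 55.9 CPM (1.35), Timeless, a fork protection factor, at 24.7 and 49.6 CPM (1.003), the CDK inhibitor Cdkn1a at 241 and 389 CPM (0.69), Umps of pyrimidine synthesis at 17.7 and 27.5 CPM (0.63) and Dscc1, part of an alternative clamp loader, at 3.92 and 5.92 CPM (0.59). Cdkn1a was higher in the G2/M-like cluster, the Ung-led cluster and the remaining ECs alike, with ratios of 0.64, 0.75 and 0.72. The lowest were E2f2 at 5.81 and 2.92 CPM (-0.99), cyclin A2 (Ccna2) at 43.6 and 24.7 CPM (-0.82), the CDK inhibitor Cdkn1b at 45.4 and 28.7 CPM (-0.66), Rbl2, a pocket protein, at 7.95 and 5.59 CPM (-0.51) and Rnaseh2c, a subunit of RNase H2, at 99.2 and 71.9 CPM (-0.46). E2f2 differed in direction from E2f1. Samhd1, a dNTPase that is also an interferon-responsive gene, was at 46.6 and 68.2 CPM (0.55), and the maintenance methyltransferase Dnmt1, which Uhrf1 recruits, at 56.2 and 63.1 CPM (0.17).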

How the data were processed

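Droplet-based single-cell RNA-seq libraries of FACS-sorted tumour ECs were analysed, 1 per condition. Per the labels, the authors used Cell Ranger 3.0.0, the mm10 genome and Seurat 3.1.1. The deposited values were the natural log of 1 plus UMIs per 10000 UMIs of a cell, for cells with a mitochondrial share of at most 9.98%. UMI counts had been assumed when the analysis was planned. They were recovered by reversing the log and dividing by each cell's smallest step (100% of values whole within 0.01). No column was left unused.

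UMIs were summed per library and class of ECs and given as CPM. With 1 library per condition no test was made, and ratios past 1.5-fold at 5 CPM or more were counted. Counting intervals (95%) were Poisson for levels, conditional binomial for ratios and Clopper-Pearson for shares, from SciPy 1.17.1 in Python 3.11.15. Only the ratio intervals were checked, on simulated Poisson counts. These hold no spread between cells, so the check does not bear on coverage in real cells. PCR duplicates were collapsed by the authors' UMIs. Depth ranged from 935 to 173134 UMIs per cell.

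Clustering used Seurat 5.3.0 in R 4.3.3, with 2500 variable genes, of which 706 that differed 2-fold or more between the libraries and the 40 replication genes were left out (1754 used), integration anchors, 30 components and a Louvain resolution of 0.5. Clusters were named from marker lists when these led the 10 top genes by fold (5 CPM added to both sides). An unnamed cluster with at least 5 replication genes among its 10 leading genes was described on its own, a rule chosen after the values were seen. No doublet caller was run, and removal of doublets is not given in the sources used here. Motifs were searched in RefSeq promoter windows of GRCm38.p6. Gene positions are from GENCODE annotation of GRCm38.

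Genes named were all 40 members and, of 90 other replication genes, the 5 highest and 5 lowest ratios with Samhd1, Cdkn1a, Ccna2 and Dnmt1. Another gene that the rule names is not reported here. The members and all lists were chosen with earlier results of these data known. Alternatives are given in the closing section.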

Additional observations from a re-analysis of the deposited data

Results flagged for a closer look

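For 9 of the 40 replication genes the log2 ratio of cGAMP over PBS had opposite signs in different classes of ECs, with counting intervals on either side of 0. These differences were not tested, since each class in each library is a set of cells from 1 mouse. How many of all genes show such opposite signs was not counted. Between the G2/M-like and the Ung-led cluster the ratio was 0.51 and -0.28 for Cdt1, 0.33 and -0.17 for Lig1, 0.52 and -0.41 for Rrm2, 0.49 and -0.19 for Slbp, 0.47 and -0.41 for Uhrf1, 0.55 and -0.41 for Clspn, 0.57 and -0.61 for Ccne2, 0.26 and -0.64 for Pclaf and 0.15 and -0.71 for Esco2. All 9 were higher in the G2/M-like and lower in the Ung-led cluster as clustered here. At a Louvain resolution of 0.8 most of these opposite signs were lost. In the Ung-led cluster Cdt1, Lig1 and Slbp then had ratios of 0.08, 0.06 and 0.08, and these 3 genes, Rrm2, Uhrf1, Clspn and Ccne2 had intervals that span 0. Esco2 was at -0.64 there and at -0.10 in the G2/M-like cluster, and Pclaf alone of the 9 had intervals on either side of 0 in these clusters, at -0.51 and 0.19. Between the G2/M-like cluster and the remaining ECs it was 0.52 and -0.42 for Rrm2, 0.57 and -0.40 for Ccne2 and 0.26 and -0.90 for Pclaf, of which Rrm2 and Ccne2 were under 5 CPM in the remaining ECs of both libraries. Between the Ung-led cluster and the remaining ECs it was -0.28 and 0.27 for Cdt1, -0.17 and 0.17 for Lig1 and -0.19 and 0.11 for Slbp.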

How the results depend on the processing

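The medians over the 40 genes listed here kept their sign under the alternatives run, except in the Ung-led cluster, where -0.02 became 0.24 at a resolution of 0.8. Single genes did change sign, and 26 of the 40 kept theirs over 6 ways of computing the ratio. Values that moved beyond a set tolerance follow, and the cause was not tested. For a median over genes, the tolerance was the median reach, to either side, of the single genes' counting intervals. It is not an interval of the median itself. For the difference in share of proliferative-like ECs it was the counting interval of that difference. For the number of genes any change was listed. Over all ECs the median log2 ratio of the 40 genes was 0.16, and 0.039 without cells with a leucocyte UMI. The number of genes lower by 1.5-fold was 0, and 1 (Tk1) as a mean over cells, with a mitochondrial limit of 5% and without cells with a leucocyte UMI. In the proliferative-like class, which is the G2/M-like cluster, the median of 0.46 became 0.29 at a resolution of 0.3, 0.25 with cells thinned before clustering and 0.28 with the Ung-led cluster counted in (an alternative chosen after seeing the data). In all other ECs the median of 0.20 became 0.44 when cells were assigned by marker UMIs without clustering. The difference in the share of proliferative-like ECs, -5.49 percentage points, became -8.02 with the limit of 5%, -2.72 at a resolution of 0.3, -2.58 with cells thinned before clustering, -10.6 by marker UMIs and -2.20 with the Ung-led cluster counted in. The median log2 ratio of proliferative-like over other ECs after PBS, 1.76, became 2.09 as a mean over cells, 1.95 without leucocyte-UMI cells, 2.66 at a resolution of 0.3, 2.60 without integration, 2.07 with thinned cells, 2.27 by marker UMIs and 2.70 with the Ung-led cluster counted in. After cGAMP, 2.02 became 2.22 as a mean over cells, 2.73 at a resolution of 0.3, without integration and with the Ung-led cluster counted in, and 2.38 by marker UMIs. The median share of ECs with a UMI of a replication gene, 9.24% and 9.34% at 5000 UMIs, was 16.1% and 16.0% at 10000 UMIs and 32.4% and 37.8% without thinning. Median-of-ratios scaling moved log2 ratios by 0.03, and a minimum of 20 CPM or none changed no value beyond its tolerance. No paired analysis was possible because each condition is 1 library. Gins1, Mcm10 and Esco2 rest on 20 to 126 UMIs a library in the remaining ECs and are limited by depth there.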

Other observations

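In the unthinned cells, an EC of the remaining class held a median of 7 of the 40 replication genes after PBS and 10 after cGAMP, and a G2/M-like EC 30 and 36. At an equal depth of 5000 UMIs these medians were 2 and 2 in the remaining class and 9.5 and 14 in the G2/M-like cluster. At 10000 UMIs they were 3 and 4, and 15 and 19, so the G2/M-like cluster still differed between the libraries at equal depth. After thinning to 5000 UMIs, 252 of 2447 ECs after PBS (10.3%) and 128 of 1327 after cGAMP (9.65%) held no UMI of any of the 40 genes, almost all of them in the remaining class.

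Of the 10 genes whose promoter window held the E2F letters, 9 were higher over all ECs after cGAMP and Pola1 was lower, beside 32 higher of all 40, so the share is near that of the whole list. Of the 9, Lig1, Uhrf1 and Clspn had intervals that span 0, and these 3 and Mcm6 changed sign under another way of computing the ratio. Mcm6, with 3 such sites, had the smallest ratio among the helicase ring genes, 0.09, and Mcm4, whose ratio of 0.41 was the largest, had no promoter entry.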
